A study of Mus musculus with 6 samples.

Results

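Chemokines and their receptors were examined in the livers of 6 male mice. Genes were taken by name from the deposited table, by symbols that begin with Ccl, Cxcl, Cx3c, Xcl, Xcr, Ccr, Cxcr or Ackr and go on to a number, with a count above 0 in any library. Of 55401 genes, 65 had such a name and 61 of them had a count. They comprised 37 ligand entries, 2 of them pseudogenes, and 24 receptors. The controls were 3 mice with floxed Prdx1 alleles and no Cre, Prdx1(lox/lox). The knockouts were 3 mice with the same floxed alleles and an Alb-cre transgene, Prdx1(lox/lox);Alb-cre, in which the albumin promoter directs Cre recombinase to hepatocytes. All mice of both groups were 8 weeks old when the diet began and had 5 weeks of MCD, an abbreviation most often used for a diet deficient in methionine and choline. No mice on another diet and no mice with Cre alone were compared, so Cre itself and the loss of Prdx1 cannot be told apart, and neither can a dependence on the diet.

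Chemokines are small secreted proteins that direct the movement of leukocytes along gradients. CC and CXC chemokines are named for the spacing of their first cysteines, and most act on G protein-coupled receptors that several ligands can share. In injured liver, CCL2 and CX3CL1 act on monocytes through CCR2 and CX3CR1, CXCL1 and CXCL2 act on neutrophils through CXCR2, and CXCL9, CXCL10 and CXCL11 are induced by interferons and act on T and NK cells through CXCR3. CXCL12 and other homeostatic chemokines are made constitutively by stromal and other tissue cells. Atypical receptors bind chemokines without classical G protein signalling and remove or transport them.

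Prdx1, the targeted gene (ENSMUSG00000028691), had 644, 569.8 and 663 CPM (counts per 1e6 scaled counts) in the control libraries and 78.7, 111 and 75.4 CPM in the knockout libraries. The knockout mean was 14.1% of the control mean, in the direction of the labels, with a log2 fold change of -2.82 ± 0.17 (SE) and an adjusted p of 4.4e-05. With 3 mice against 3 the smallest p of a two-sided exact permutation test is 0.1, and Prdx1 reached it. Deposited counts totalled between 58790874 and 78291273 per library. Low values piled up at 4 and its multiples, so a read pair was taken as worth 4 deposited counts. The first principal component separated the genotypes, at -94.7 to -80.8 in the controls and 85.8 to 88.9 in the knockouts. TMM factors, which scale libraries so that most genes do not differ, ran from 0.869 to 0.887 in the controls and from 1.096 to 1.159 in the knockouts. Over all genes tested, the median log2 fold change was 0.05 with these factors and 0.41 with library sizes alone, so the factors lower every log2 fold change below by about that difference. The labels do not say whether mice were littermates, and p-values measure the spread among these 6 samples.

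The sequences before the transcription start are shown for 2 interferon-induced ligands that fell, for 2 neutrophil chemokines from a neighbouring gene cluster, and for Cx3cl1, which had the largest fold among the ligands that rose. Each run is 250 bases up to the start, 5′ to 3′, from RefSeq on GRCm38.p6. For Cxcl1, Cxcl2 and Cx3cl1 the RefSeq start lies downstream of the first base in the deposited annotation. For Cx3cl1 that base is 94772009, so most of its run lies within the deposited span of the gene. Capitals mark matches, on either strand, to GAAANNGAAA (the interferon-stimulated response element, ISRE) or GGGNNTTTCC (a form of the NF-kB site).
Cxcl9, chr5:92328080-92328329, minus strand: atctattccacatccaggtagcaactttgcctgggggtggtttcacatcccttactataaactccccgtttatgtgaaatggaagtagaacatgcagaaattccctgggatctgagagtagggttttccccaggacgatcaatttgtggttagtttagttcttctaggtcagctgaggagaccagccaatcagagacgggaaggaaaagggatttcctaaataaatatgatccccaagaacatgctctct
Cxcl10, chr5:92348890-92349139, minus strand: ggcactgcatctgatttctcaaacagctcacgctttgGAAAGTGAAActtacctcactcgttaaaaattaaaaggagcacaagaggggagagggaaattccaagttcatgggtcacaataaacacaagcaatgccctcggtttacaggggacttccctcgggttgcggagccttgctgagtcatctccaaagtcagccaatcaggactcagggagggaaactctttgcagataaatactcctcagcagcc
Cxcl1, chr5:90890995-90891244, plus strand: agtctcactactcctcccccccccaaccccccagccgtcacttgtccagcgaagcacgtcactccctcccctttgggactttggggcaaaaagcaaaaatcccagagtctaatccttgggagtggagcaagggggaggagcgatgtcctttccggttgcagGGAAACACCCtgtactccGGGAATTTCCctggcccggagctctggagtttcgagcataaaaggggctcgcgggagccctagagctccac
Cxcl2, chr5:90903649-90903898, plus strand: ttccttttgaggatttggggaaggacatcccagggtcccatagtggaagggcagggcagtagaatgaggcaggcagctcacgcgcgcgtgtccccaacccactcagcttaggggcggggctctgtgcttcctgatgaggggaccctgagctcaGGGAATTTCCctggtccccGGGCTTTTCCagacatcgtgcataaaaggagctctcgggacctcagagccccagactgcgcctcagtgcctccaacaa
Cx3cl1, chr8:94771930-94772179, plus strand: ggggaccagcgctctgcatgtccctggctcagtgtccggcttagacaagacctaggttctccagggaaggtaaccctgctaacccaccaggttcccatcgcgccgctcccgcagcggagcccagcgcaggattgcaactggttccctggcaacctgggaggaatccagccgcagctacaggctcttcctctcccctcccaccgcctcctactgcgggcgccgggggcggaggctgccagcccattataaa
The upstream sequence of Cxcl10 held 1 ISRE match, which began 213 bases before the start. That of Cxcl1 held 2 NF-kB matches, which began 89 and 71 bases before it, and that of Cxcl2 held 2, at 97 and 78 bases. The sequences of Cxcl9 and Cx3cl1 held neither pattern. A further pattern, TTCNNNGAA (the gamma-activated site), was in none of these 5. None of the marked matches overlapped another.

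RefSeq sequences were matched by symbol for 45 of the 61 members. Of these, 3 had an ISRE match (Cxcl10, Cxcl14 and Ccl19), 4 had a gamma-activated site and 6 had an NF-kB match (Cxcl1, Cxcl2, Cxcl3, Ccl9, Ccl20 and Ccr3). Among 27025 upstream sequences of the same length, 3.04%, 7.18% and 1.40% held these patterns. All 3 neutrophil chemokines with a sequence in the table held this form of the NF-kB site. Other forms of the site were not searched for, so sequences without a mark can hold them. A match describes letters and not binding.

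Ligands moved in both directions, whereas the receptors that passed the test all rose. Of 47 members that passed the count filter, 15 rose and 6 fell in the knockouts in the quasi-likelihood test of edgeR, with Benjamini-Hochberg adjustment over 18931 genes, against 19.9% of all tested genes that rose and 18.0% that fell (37.9% in either direction). All 6 that fell were ligands, and of 19 tested receptors 8 rose and 0 fell (0 were also lower at an unadjusted p under 0.05 and 0 by DESeq2). The difference between ligands and receptors was not tested. Among 28 tested ligands 7 rose, 6 fell and 15 did not pass, and the shares that rose and fell were near those of all tested genes. The groups did not overlap for 19 members that were higher and 6 that were lower in the knockouts, against 28.8% and 24.2% of all tested genes (53.0% together). Over both directions, the share of members whose groups did not overlap was near that of all tested genes. A member can pass the filter through the group in which it is high, so these counts describe the measured members only. The count of members that rose was 8 without knockout replicate 2. The count that fell was 3 without control replicate 2 and 3 without knockout replicate 2. The shares of all tested genes in these smaller fits are not given, so these drops cannot be read as particular to the members. With library sizes alone 19 rose and 5 fell, against 34.1% and 6.60% of all tested genes. By limma on log2(FPKM + 0.5), where FPKM is fragments per kilobase and 1e6 fragments, 21 rose and 5 fell, against 34.1% and 7.15%. With 1 added in place of 0.5 these counts were 22 and 5, and the shares of all tested genes are not given.

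**Figure D1:**
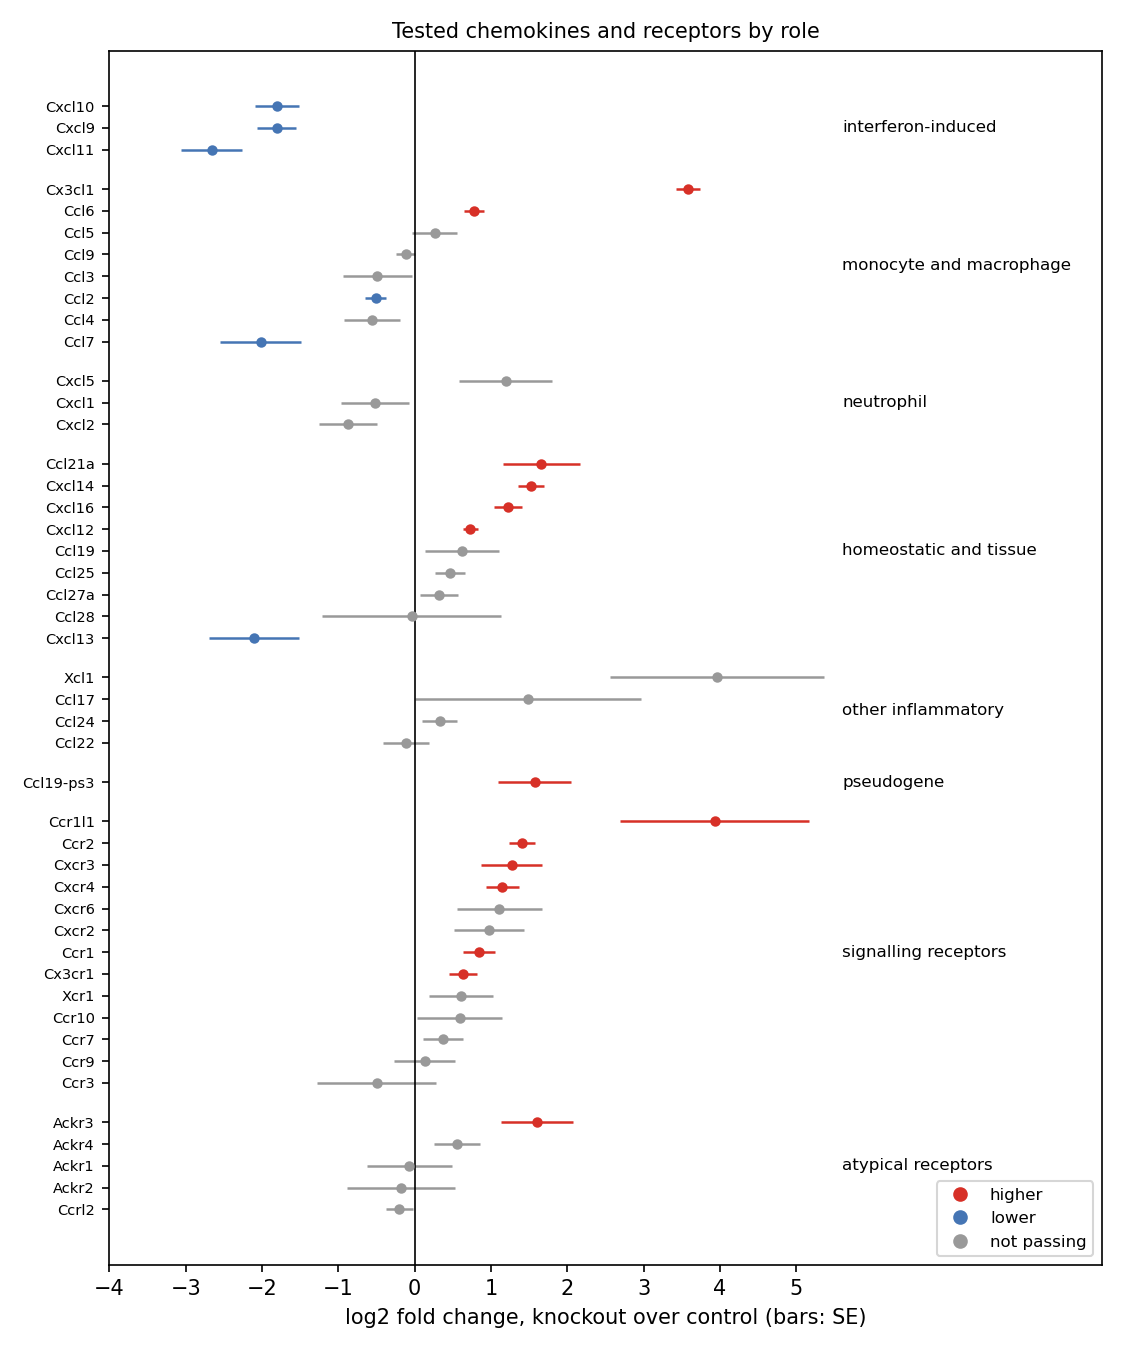
Fitted log2 fold changes (knockout over control, x axis) of 46 tested members, grouped by role, with bars of 1 SE. Red and blue points passed the adjusted threshold of 0.05. The interferon-induced ligands all lie left of 0, from -1.80 to -2.66, and the called receptors all lie right of it, while the points of Xcl1 and Ccr1l1 depend on the prior count.

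Interferon-induced CXCR3 ligands fell, all 3 of them. Cxcl9 (ENSMUSG00000029417) had 18.1, 21.1 and 31.4 CPM in control livers and 4.97, 7.15 and 7.99 CPM in knockout livers. Cxcl10 (ENSMUSG00000034855) had 16.5, 25.5 and 14.7 CPM against 3.68, 6.01 and 6.62 CPM. Cxcl11 (ENSMUSG00000060183) had 3.94, 5.95 and 4.0 CPM against 0.575, 0.474 and 1.15 CPM. The deposited annotation types Cxcl11 both as protein-coding and as a polymorphic pseudogene. For each of the 3 genes every knockout library was below every control library. The log2 fold change was -1.81 ± 0.26 (SE) for Cxcl9 (adjusted p = 0.00137), -1.80 ± 0.29 for Cxcl10 (adjusted p = 0.00224) and -2.66 ± 0.40 for Cxcl11 (adjusted p = 0.00180). In linear terms the control means were 3.51, 3.48 and 6.33 times the knockout means. The calls held in all 16 alternatives, the 6 that left out a library included.

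These 3 genes lie next to each other on chromosome 5, from 92321347 to 92365485 (GRCm38), on the minus strand. Cxcl10 and Cxcl11 lie within the span of Art3, an ADP-ribosyltransferase gene on the other strand, and the sources used here do not say whether strand was used in counting. Art3 had 4.04 ± 0.956 CPM in control livers and 5.16 ± 1.05 CPM in knockout livers (SD, n = 3 each), a log2 fold change of 0.35 ± 0.25 with an adjusted p of 0.315 by edgeR. Cxcl9 does not overlap Art3. Gm2673, a pseudogene within Cxcl11, had 123, 0 and 0 deposited counts in control livers and 30, 16 and 55 in knockout livers, so reads of these genes could be assigned to either.

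Other interferon-stimulated genes went both ways. Of 36 on a list of genes induced by type I or type II interferon, 13 fell, 5 rose and 18 did not pass. Their median log2 fold change was -0.34, or 0.04 with library sizes alone, beside 0.05 and 0.41 over all genes tested. The GTPase gene Iigp1 fell from 315 ± 24.9 to 154 ± 22.5 CPM, the ubiquitin-like modifier gene Isg15 from 25.3 ± 5.74 to 9.32 ± 1.18 CPM, and the deconjugating enzyme gene Usp18 from 36.1 ± 5.97 to 15.9 ± 2.59 CPM (n = 3 per genotype, SD). The part of these genes' levels in the fall of the CXCR3 ligands was not tested.

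The receptor of these ligands rose. Cxcr3 (ENSMUSG00000050232), found on activated T and NK cells, had 0.499, 0.906 and 1.04 CPM in control livers and 1.53, 1.91 and 2.48 CPM in knockout livers. The groups did not overlap, and the log2 fold change was 1.27 ± 0.40 (adjusted p = 0.0393). The call was lost without control replicate 1 or 2 and without each knockout, with adjusted p from 0.0564 to 0.135 in edgeR, and without the count filter (0.0515). Of 21 T and NK cell markers, 19 were tested, of which 8 rose and 0 fell (0 also at an unadjusted p under 0.05 and by DESeq2), with a median of 1.14. Their summed level was 16.4 to 21.5 CPM in control livers and 35.7 to 38.5 CPM in knockout livers, and Cd8a rose from 0.496 ± 0.178 to 2.29 ± 0.397 CPM. Whether the level of Cxcr3 follows these markers was not tested. In whole liver, more cells of a type and more RNA per cell cannot be told apart.

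**Figure D2:**
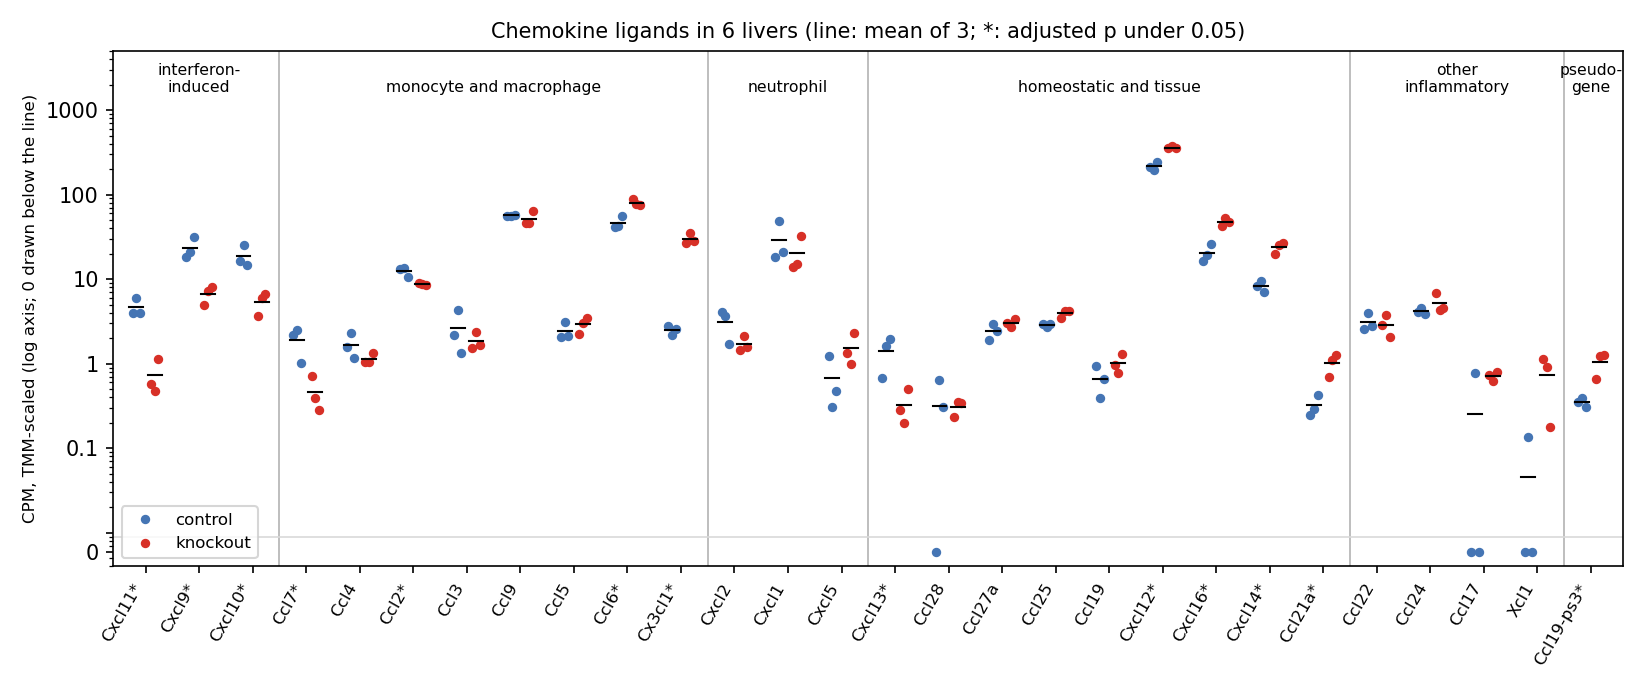
CPM of the 28 tested ligand entries in each library (y axis, logarithmic, with 0 drawn below a line), controls in blue and knockouts in red, grouped by role, with a line at each mean. Cxcl9, Cxcl10, Cxcl11, Ccl7 and Cxcl13 show separate groups with the knockouts lower, and Cx3cl1 shows the widest gap with the knockouts higher.

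Chemokines that act on monocytes and macrophages did not move as 1 group. Of 8 tested members, 2 rose, 2 fell and 4 did not pass, and their median log2 fold change was -0.31, or 0.06 with library sizes alone. Cx3cl1 (ENSMUSG00000031778, chromosome 8, 94772009 to 94782427) encodes fractalkine, a membrane-bound chemokine that attaches CX3CR1-bearing monocytes to epithelium and endothelium. It had 2.76, 2.21 and 2.55 CPM in control livers and 27.1, 34.8 and 28.3 CPM in knockout livers. Every knockout library was far above every control, with a knockout mean 11.99 times the control mean and a log2 fold change of 3.58 ± 0.16 (adjusted p = 1.9e-05). Ccl6, which macrophages and other myeloid cells make and which acts on CCR1, had 41.8, 42.6 and 55.5 CPM against 87.9, 77.7 and 74.7 CPM. It rose by 0.78 ± 0.13 on the log2 scale (adjusted p = 0.00311).

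Of the CCR2 ligands, the 2 that could be tested fell. Ccl2 (monocyte chemoattractant protein) had 13.1, 13.7 and 10.6 CPM in control livers and 8.90, 8.77 and 8.63 CPM in knockout livers. It fell by 0.51 ± 0.14 on the log2 scale (adjusted p = 0.0260). The size of this fall depended on the scaling, with a log2 fold change of -0.14 and an adjusted p of 0.499 with library sizes alone, and the same change with an adjusted p of 0.351 by limma on log2(FPKM + 0.5). It was also not called by edgeR without control replicate 1 or 2 or without any 1 of the knockouts (adjusted p = 0.0731 to 0.0762). Ccl7, the neighbour of Ccl2 on chromosome 11, had 2.16, 2.50 and 1.01 CPM against 0.722, 0.397 and 0.284 CPM. It fell by 2.02 ± 0.53 on the log2 scale (adjusted p = 0.0195), a call that was lost without control replicate 1 or 2 and without knockout replicate 2 or 3 (adjusted p = 0.0565 to 0.0694 in edgeR), and by limma on unfiltered log2(FPKM + 0.5) (0.0572). Ccl12, a further CCR2 ligand of mice, was too low to be tested, with no counts in the controls and 30, 21 and 0 deposited counts in the knockouts. Against a floor of 12 deposited counts over the control group, its knockout mean was at least 3.24-fold higher, a bound that was 1.67 without knockout replicate 1 and 4.85 without knockout replicate 3.

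The other 4 tested monocyte and macrophage chemokines did not pass the test. Ccl9 had 56.0, 56.6 and 58.0 CPM in control livers and 46.4, 46.6 and 63.6 CPM in knockout livers, a log2 fold change of -0.12 ± 0.13 that had the opposite sign, 0.24, with library sizes alone. Ccl3, Ccl4 and Ccl5, made by macrophages and lymphocytes, had log2 fold changes of -0.49 ± 0.45, -0.56 ± 0.37 and 0.26 ± 0.29, and their groups overlapped (adjusted p from 0.275 to 0.523 by edgeR over the 4 that did not pass).

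Receptors of monocytes and macrophages rose. Ccr2 (ENSMUSG00000049103), the receptor by which monocytes leave the bone marrow and enter injured tissue, had 7.99, 7.35 and 7.85 CPM in control livers and 24.2, 21.6 and 15.7 CPM in knockout livers. Every knockout library was above every control, and the log2 fold change was 1.41 ± 0.17 (adjusted p = 7.8e-04). Ccr1 had 3.12, 2.51 and 3.08 CPM against 4.49, 5.83 and 5.23 CPM, a rise of 0.84 ± 0.21 on the log2 scale (adjusted p = 0.0151) that was not called without knockout replicate 2 (edgeR adjusted p = 0.0640).

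Cx3cr1, the receptor of fractalkine, also passed the test. It had 9.40, 7.61 and 7.41 CPM in control livers and 10.5, 12.2 and 15.1 CPM in knockout livers, a log2 fold change of 0.63 ± 0.18 (adjusted p = 0.0268). The call was lost without control replicate 2 or 3 and without knockout replicate 2 or 3 (adjusted p = 0.0658 to 0.0873 in edgeR). With the replicate number as a block it was also lost (adjusted p = 0.0655 in edgeR). The annotated span of Cx3cr1 in the table runs across several other genes, among them Gorasp1 and Csrnp1 on the same strand, so its count is uncertain. Gorasp1 had a log2 fold change of -1.01 and Csrnp1 one of -1.06. Ccr1l1, a Ccr1-like gene, had 0, 2 and 0 deposited counts in control livers and 12, 16 and 21 in knockout livers. It passed the test (adjusted p = 0.0392), but its fitted fold depends on the prior count and is not given. It was not called by DESeq2 (adjusted p = 0.0554), without the count filter (0.125 in edgeR), without control replicate 1 or 3 or without any 1 of the knockouts (0.0955 to 0.123). With the replicate number as a block it was also not called (adjusted p = 0.109 in edgeR).

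Macrophage markers rose beside these receptors. Of 20 markers of monocyte-derived macrophages 17 rose, 0 fell (0 also at an unadjusted p under 0.05 and by DESeq2) and 3 did not pass, and their median log2 fold change was 1.0. Their summed level was 1098 to 1179 CPM in control livers and 3013 to 3153 CPM in knockout livers. Spp1 rose from 52.6 ± 8.22 to 980.3 ± 88.5 CPM and gave much of the rise in this sum, but this gene is also on the ductular list. Among the 14 genes that mark Kupffer cells, 9 were called higher, 1 lower and 4 neither, and their summed level was 1195 to 1592 CPM against 2716 to 3011 CPM. C1qb, a complement subunit of macrophages, rose from 109 ± 12.2 to 301 ± 7.23 CPM. The part of these cells in the levels of Ccr1, Ccr2, Cx3cr1 and Ccl6 was not tested. Summed over the signalling receptors, the level was 47.3 to 49.4 CPM in control livers and 100.02 to 121 CPM in knockout livers.

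**Figure D3:**
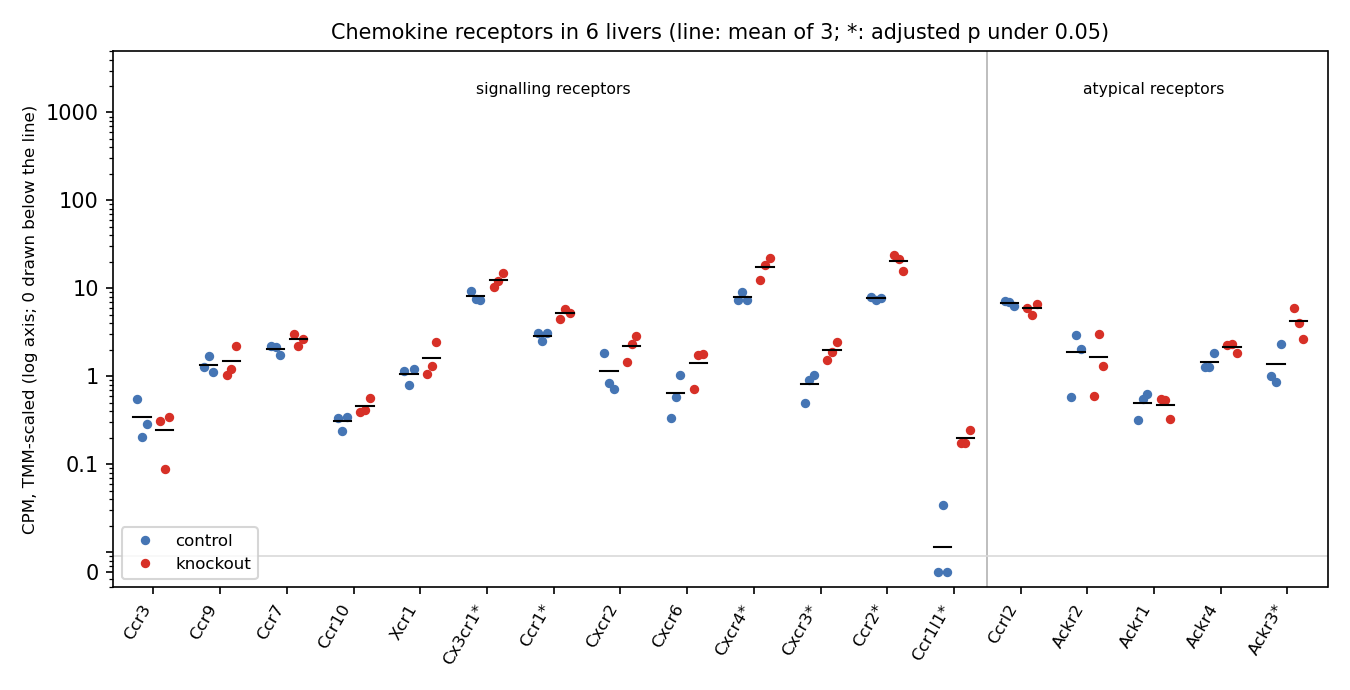
CPM of 18 tested receptors in each library (y axis, logarithmic, with 0 drawn below a line), controls in blue and knockouts in red, with a line at each mean. For Ccr2, Cxcr4, Ccr1 and Cxcr3 the 3 knockout points lie above the 3 control points, and for Ackr1, Ackr2 and Ccrl2 the groups overlap.

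None of the 3 tested neutrophil chemokines passed (0 also were called by DESeq2 as lower, and 0 were lower at an unadjusted p under 0.05). Cxcl1 had 18.5, 48.5 and 20.9 CPM in control livers and 14.1, 15.0 and 32.4 CPM in knockout livers. One library of each group stood well above the other members of its group. The log2 fold change was -0.52 ± 0.45 (adjusted p = 0.412), and 0.06 without control replicate 2. Cxcl2 had 4.14, 3.62 and 1.69 CPM against 1.44, 2.15 and 1.58 CPM, a log2 fold change of -0.87 ± 0.38 (adjusted p = 0.112). Of 16 alternatives it passed only without control replicate 3, with a log2 fold change of -1.17 and an adjusted p of 0.0208 in edgeR. Cxcl5 had 1.25, 0.308 and 0.479 CPM against 1.33, 1.0 and 2.33 CPM (log2 fold change 1.19 ± 0.61, adjusted p = 0.166), and it passed only without control replicate 1 (1.97, adjusted p = 0.0384 in edgeR). Cxcl3 had no counts in the controls and 10, 0 and 12 deposited counts in the knockouts.

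The receptor of these chemokines, Cxcr2, had 1.86, 0.838 and 0.719 CPM in control livers and 1.44, 2.34 and 2.87 CPM in knockout livers, which overlapped (log2 fold change 0.97 ± 0.46, adjusted p = 0.145). Cxcr1 had 0, 4 and 4 deposited counts in the controls and none in the knockouts. Of 14 neutrophil markers 9 were tested, of which 4 rose and 0 fell (0 also at an unadjusted p under 0.05 and by DESeq2), and Camp and Ly6g were at 0 in every library. Their summed level was 19.0 to 22.4 CPM in control livers and 39.1 to 47.2 CPM in knockout livers. Csf3r, the granulocyte colony-stimulating factor receptor, rose from 9.79 ± 0.917 to 26.3 ± 3.15 CPM. Their part in the values of Cxcr2 was not tested.

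Homeostatic and tissue chemokines were led in level by Cxcl12. Of 9 tested members 4 rose, 1 fell and 4 did not pass, and their median log2 fold change was 0.62, or 0.98 with library sizes alone. Cxcl12 (ENSMUSG00000061353), which stromal cells make to retain CXCR4-bearing cells, had 210.3, 195 and 243 CPM in control livers and 352, 371 and 354 CPM in knockout livers. It was the ligand with the most counts in these livers and rose by 0.73 ± 0.10 on the log2 scale (adjusted p = 0.00112). Its receptor Cxcr4 (ENSMUSG00000045382) had 7.37, 9.13 and 7.48 CPM against 12.6, 18.3 and 22.1 CPM and rose by 1.15 ± 0.22 (adjusted p = 0.00503). Ligand and receptor were both separate between the groups.

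Cxcl14, an epithelial and stromal chemokine, had 8.37, 9.49 and 7.12 CPM in control livers and 19.7, 25.6 and 26.8 CPM in knockout livers, a log2 fold change of 1.53 ± 0.17 (adjusted p = 4.8e-04). Cxcl16, a membrane-bound ligand of CXCR6 on T and NKT cells, had 16.3, 19.1 and 25.8 CPM against 42.9, 52.7 and 46.9 CPM, a log2 fold change of 1.22 ± 0.18 (adjusted p = 0.00149). The end of Cxcl16 overlaps Zmynd15 on the other strand by 552 bases, and Zmynd15 had a log2 fold change of 1.11. Cxcr6 had groups that overlapped and a log2 fold change of 1.11 ± 0.56 (edgeR adjusted p = 0.164). The whole of Cxcr6 lies within Fyco1, on the other strand, so its count is uncertain as well.

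Chemokines of lymphoid tissue were low and went both ways. Ccl21a, a CCR7 ligand of lymphatic vessels, had 0.250, 0.291 and 0.428 CPM in control livers and 0.693, 1.10 and 1.26 CPM in knockout livers, a log2 fold change of 1.66 ± 0.50 (adjusted p = 0.0346). The call was lost without control replicate 1 or 2 and without knockout replicate 2 or 3 (adjusted p = 0.0775 to 0.126 in edgeR). With the replicate number as a block it was also lost (adjusted p = 0.0704 in edgeR). Cxcl13, which attracts B cells through CXCR5, had 0.678, 1.61 and 1.98 CPM against 0.280, 0.199 and 0.508 CPM and fell by 2.11 ± 0.59 on the log2 scale (adjusted p = 0.0257). That call was lost without control replicate 2 or 3 and without knockout replicate 1 or 2 (adjusted p = 0.0662 to 0.0838 in edgeR), and by limma on unfiltered log2(FPKM + 0.5) (0.0710). Of 9 tested B cell markers 3 fell, 1 rose and 5 did not pass, with median log2 fold changes of -1.76 by TMM, -1.37 by library sizes and 0.14 by limma on log2(FPKM + 0.5). The summed level of the list was 14.8 to 18.1 CPM in control livers and 16.6 to 21.3 CPM in knockout livers, and Cd22 rose by 1.31 on the log2 scale. The part of B cells in the level of Cxcl13 was not tested. Ccl21a, Ccl21b, Ccl21d and the Ccl19 pseudogenes lie in a region of near-identical copies on chromosome 4, which makes any 1 copy's value uncertain. The pseudogene Ccl19-ps3 had 0.357, 0.393 and 0.308 CPM against 0.663, 1.24 and 1.25 CPM (log2 fold change 1.57 ± 0.48, adjusted p = 0.0356), a call lost without any 1 of the controls and without knockout replicate 2 or 3 (0.0612 to 0.123 in edgeR) and without the count filter (0.0501). With the replicate number as a block it was also lost (adjusted p = 0.0952 in edgeR). Ccl19 itself had a log2 fold change of 0.62 ± 0.49 and Ccr7, the receptor, one of 0.37 ± 0.26, and neither passed.

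Markers of tissue cells that can make such ligands were also measured. All 12 cholangiocyte and ductular markers rose, with a median of 3.98 and a summed level of 89.5 to 102 CPM in control livers and 1199.6 to 1389 CPM in knockout livers. Spp1, which is also on the macrophage list, made up the larger part of the knockout sum, at 980.3 ± 88.5 CPM (SD, n = 3). Of 16 stellate cell and fibroblast markers 15 rose and 1 did not pass, and their median log2 fold change was 1.25 and a summed level of 875 to 965 CPM against 2636 to 3037 CPM. Tspan8, of ductular epithelium, rose from 1.94 ± 0.0803 to 37.7 ± 2.71 CPM and Cygb, of stellate cells, from 22.8 ± 0.970 to 155 ± 9.63 CPM. Of 14 endothelial markers 5 rose and 4 fell, with a summed level of 825 to 862 CPM against 829 to 934 CPM. Of 6 lymphatic markers 3 rose, Ccl21a being 1 of them, with Pdpn at 0.518 ± 0.233 and 1.86 ± 0.201 CPM. Hepatocyte markers fell for 12 of 15. The part of any of these cells in the levels of Cx3cl1, Cxcl12, Cxcl14, Cxcl16 and Ccl21a was not tested.

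The remaining inflammatory ligands did not pass. Ccl24, an eosinophil chemokine that macrophages make, had 4.14, 4.55 and 3.88 CPM in control livers and 6.88, 4.36 and 4.62 CPM in knockout livers (log2 fold change 0.33 ± 0.23, adjusted p = 0.297), and it was called with library sizes alone (0.71, adjusted p = 0.0449 in edgeR) and by limma on log2(FPKM + 0.5) (0.57, adjusted p = 0.0402). Ccl22 and Ccl17, CCR4 ligands of dendritic cells, had log2 fold changes of -0.11 ± 0.30 and 1.48 ± 1.48. Ccl22 had 2.55, 4.02 and 2.77 CPM in control livers and 2.86, 3.72 and 2.09 CPM in knockout livers. Ccl17 had 0, 45 and 0 deposited counts in control livers and 50, 57 and 67 in knockout livers, and it passed the test only without control replicate 2 (adjusted p = 0.00537 in edgeR). Xcl1, a ligand of T and NK cells for XCR1, had 0, 8 and 0 deposited counts against 77, 82 and 15 and an adjusted p of 0.0588, and its groups did not overlap. Of 12 dendritic cell markers 6 rose and 0 fell (0 also at an unadjusted p under 0.05 and by DESeq2), and Ccl22 is among the 12. Their summed level was 53.2 to 71.97 CPM in control livers and 107 to 122 CPM in knockout livers, with Cd207 rising from 3.55 ± 0.150 to 18.0 ± 0.0898 CPM.

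Among the atypical receptors, 1 of 5 rose. Ackr3, which takes up CXCL12, had 1.02, 0.855 and 2.31 CPM in control livers and 6.06, 4.03 and 2.66 CPM in knockout livers, a log2 fold change of 1.60 ± 0.47 (adjusted p = 0.0294). The call was lost without control replicate 1 or 2 and without knockout replicate 1 or 2 (adjusted p = 0.0689 to 0.109 in edgeR). With the replicate number as a block it was also lost (adjusted p = 0.0645 in edgeR). Ccrl2, which binds chemerin, had 7.26, 6.92 and 6.23 CPM against 6.04, 4.97 and 6.71 CPM, with a log2 fold change of -0.20 ± 0.18. Ackr2, a scavenger of inflammatory CC chemokines, ranged from 0.589 to 2.97 CPM in the controls and from 0.604 to 3.06 CPM in knockout livers. Ackr4 and Ackr1 had log2 fold changes of 0.55 ± 0.30 and -0.07 ± 0.56. The whole of Ackr4 lies within Acad11, on the other strand, so its count is uncertain. With library sizes alone Ccrl2, Ackr2 and Ackr1 changed sign (0.16, 0.20 and 0.31), and none of these 3 passed there.

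Levels of different genes can be compared only per length. By group means in FPKM, the ligands Cxcl12 and Ccl6 stood highest in the controls at 21.3 ± 2.57 and 20.9 ± 3.51 and in the knockouts at 45.0 ± 2.19 and 45.8 ± 4.96, and these 2 did not differ beyond their spread in either group. In control replicate 2, Cxcl1 was above both, at 20.5 FPKM against 18.9 for Cxcl12 and 18.8 for Ccl6. Ccl9 at 15.0 ± 0.323 and Cxcl1 at 12.5 ± 6.97 followed in the controls, and Ccl9 at 17.5 ± 2.75 and Cxcl16 at 16.1 ± 1.82 in the knockouts. Cx3cl1 stood at 0.512 ± 0.0646 and 7.83 ± 1.19 FPKM. Cxcl9 and Cxcl10 stood at 6.27 ± 1.87 and 6.73 ± 1.98 FPKM in control livers, against 2.26 ± 0.485 and 2.45 ± 0.670 in knockout livers (SD, n = 3 throughout). Summed over the receptors, the level was 13.4 to 14.1 FPKM in the controls and 29.4 to 35.4 FPKM in the knockouts, and Cxcr4 was the highest receptor in all 6 libraries, with 23.9% to 34.2% of that sum.

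Many members lie in clusters in the genome. The 3 genes of the Cxcl9 cluster all fell, while none of the 3 tested genes of the Cxcl1 cluster, which begins at 90759360 on the same chromosome, passed. Of 5 members around Ccl2 on chromosome 11, the 2 tested genes fell and 3 were too low to test. Of 5 members from Ccl5 to Ccl4, also on chromosome 11, Ccl6 rose and 4 did not pass. Cx3cl1 lies between Ccl22 and Ccl17 on chromosome 8, and of these 3 only Cx3cl1 passed.

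Genes that carry the signal of chemokine receptors were measured as well. Of 42 measured genes for G protein subunits, arrestins, receptor kinases, phosphoinositide 3-kinases and Rac activators, 24 rose, 3 fell and 15 did not pass, and their median log2 fold change was 0.53, or 0.90 with library sizes alone. The Rac activators Prex1 and Vav1 rose by 1.02 ± 0.09 and 1.23 ± 0.12 and the kinase subunit gene Pik3cd by 1.18 ± 0.12 on the log2 scale. Of 11 regulators of G protein signalling 10 were tested, of which 5 rose, 2 fell and 3 did not pass, and Rgs2 rose by 1.81 ± 0.13. Markers of macrophages, T and NK cells, neutrophils and dendritic cells were called higher more often than lower, as given above. B cell markers went both ways. The part of any of these cells in these values was not tested. Of 21 NF-kB genes and targets 20 were tested, of which 5 rose, 3 fell and 12 did not pass. These shares were near the 19.9% and 18.0% of all tested genes that rose and fell. The median log2 fold change of the list was 0.36, or 0.73 with library sizes alone. Sod2, named for the smallest p of the list, fell by 0.70 ± 0.08, against the direction of that median. Pf4 and Ppbp, platelet chemokines whose names lie outside the rule, had log2 fold changes of 1.37 ± 0.33 (adjusted p = 0.0146) and -0.39 ± 0.77 (adjusted p = 0.729), and Pf4 was not called without knockout replicate 3 (edgeR adjusted p = 0.0532).

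The 14 members that were not tested had at most 31 deposited counts in any library. They were Ccl1, Ccl11, Ccl12, Ccl20, Ccl21b, Ccl21d, Cxcl3, Cxcl17, Ccl19-ps1, Ccr4, Ccr6, Ccr8, Cxcr1 and Cxcr5. Ccl1 and Ccr8 were just inside the rule, with 4 deposited counts in 1 knockout library, and Ccl8, Ccl26, Ccl27b and Cxcl15 were just outside it, with 0 in all 6. Tested members not described above, which are Ccl25, Ccl27a, Ccl28, Ccr3, Ccr9, Ccr10 and Xcr1, had log2 fold changes from -0.50 to 0.61 and did not pass.

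**Figure D4:**
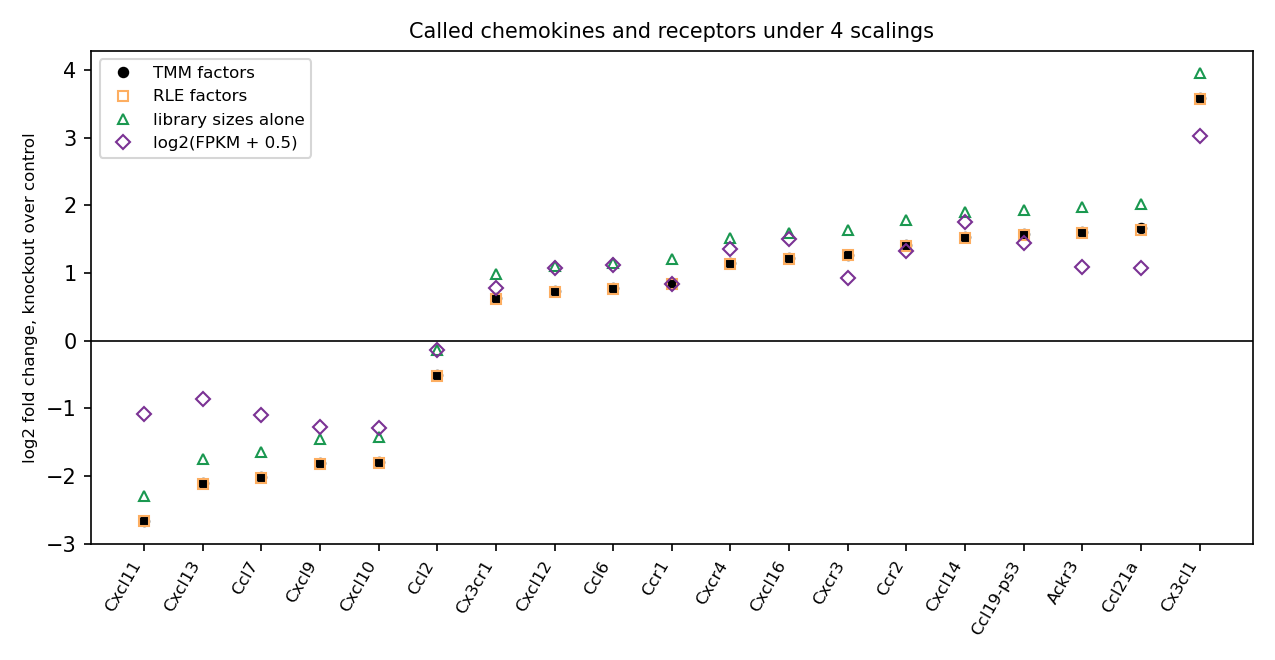
Log2 fold changes (y axis, knockout over control) of 19 called members under 4 scalings (Ccr1l1 is left out because it had 2 deposited counts in the controls). TMM and RLE values coincide, library sizes alone lie higher than these 2 for every gene, and only Ccl2 comes near 0.

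All 19 of these members kept their direction under TMM, RLE, library sizes alone and log2(FPKM + 0.5). Of the 21 called members, 11 kept their call in all 16 alternatives that were fitted per gene. Of these, 8 rose (among them Cx3cl1, Ccl6, Cxcl12, Cxcl14, Cxcl16, Ccr2 and Cxcr4) and 3 fell (Cxcl9, Cxcl10 and Cxcl11). The 16 do not include the fold of at least 2, at which 11 members rose and 5 fell. The share of all tested genes at that fold is not given. Ccl6 and Cxcl12, with log2 fold changes of 0.78 and 0.73, were below that fold.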

How the data were processed

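Poly(A) RNA of 6 livers was sequenced, and the deposited table gives an estimated count and an FPKM value per gene and library. Adapters carried molecular identifiers, per the labels' protocols. StringTie 1.3.4d, HISAT2 2.0.4, edgeR, cutadapt 1.9, DESeq2 and UMI-tools are named, without roles, per the submitters' processing notes. Those notes list mm9, but 94.2% of 55141 identifiers found in GENCODE M21 had their GRCm38 position. Per the file headers, columns are named wt or AlbCRE with a number, and wt was taken as the only genotype without Cre. The deposited counts, made by the authors, are whole but piled up at multiples of 4 (854 genes at 4 and 280 at 3 in control 1), so they were treated as estimated counts and no counting intervals are given. The authors' FPKM values are listed at 1e-04 wherever the count is 0.

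Genes passing filterByExpr (minimum count 10, total 15; 18931 genes) were tested in R 4.3.3 with edgeR 4.0.16 (TMM, genotype only, two-sided quasi-likelihood test, Benjamini-Hochberg adjustment, threshold 0.05). SEs of log2 fold changes come from the F statistic, and CPM uses TMM-scaled library sizes. In simulated data for this comparison (18931 genes, 100 changed 2-fold and 100 changed 4-fold) 50.5% and 72.3% were recovered and 3.33% of calls were false. The simulated counts did not pile up at multiples of 4, and far fewer of their genes changed than the 37.9% called here. These rates need not hold for the measured data. Alternatives were RLE factors, library sizes alone, DESeq2 1.42.0, no count filter, limma 3.58.1 on log2(FPKM + 0.5), which needs FPKM of at least 0.1 in 3 libraries, and on the same with 1 or 0.1 added or without that filter, counts divided by 4, a fold of at least 2, a replicate block and leaving out each library. Per-sample values were given for members past the threshold and for up to 3 members per role with the highest FPKM, and for others after their values were seen. From each other list up to 3 genes with the smallest p were named. The members and lists were chosen with earlier results of these data known. Some lists share genes: Spp1, Rgs5 and Lyve1 are on 2 lists each, and Ccl22 and Ccl21a are members. A list of mast cell, basophil and eosinophil markers (10 genes, of which 1, Siglecf, was tested, with a log2 fold change of 0.57, and Fcer1a, Mcpt4, Ms4a2 and Prss34 were at 0) was also measured. Values of some genes are not reported here, though they are counted in the totals.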

Additional observations from a re-analysis of the deposited data

How the results depend on the processing

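Leaving out each library gave 8 to 12 members that rose, against 15, and 3 to 6 that fell, against 6. For these counts, the unfiltered limma fit and the replicate block, the shares of all tested genes are not given. Changes in these counts therefore cannot be read as particular to the members. The count of members that fell was 3 by limma on log2(FPKM + 0.5) without a filter on low values. Prdx1 kept its call in all 16 alternatives, with log2 fold changes of -2.45 with library sizes alone to -3.02 without knockout replicate 2. No called member changed sign. Of 9 members that did not pass and are described with per-sample values under the rule for named genes, those that changed sign were Ackr2 (0.20 with library sizes alone, 0.07 by limma with 0.5 added with or without the filter, 0.05 with 1 and 0.12 with 0.1 added, and -0.97 to 0.32 leaving out each library, with 0.23 without knockout replicate 1), Ccl22 (in the same order 0.27, 0.17, 0.13 and 0.21, and -0.33 to 0.12 leaving out each library, with 0.09 without knockout replicate 3), Ccl9 (0.24, 0.20, 0.20 and 0.21), Ccrl2 (0.16, 0.11, 0.10 and 0.13) and Cxcl1 (-1.0 to 0.06 leaving out each library). Of the other 17 members that did not pass, 4 changed sign in some alternative, with ranges of -0.31 to 0.31 for Ackr1, -0.62 to 1.0 for Ccl28, -0.80 to 0.09 for Ccl3 and -0.28 to 0.48 for Ccr9. The cause was not tested. With the replicate number as a block, 10 members rose and 6 fell. Deviations of same-numbered libraries correlated at 0.016 to 0.035, which is too low to treat the numbers as a pairing.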
